A study of Mus musculus with 15 samples.

Results

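The genes described here are 10 mouse genes used to recognise haematopoietic stem cells, namely Hlf, Mecom, Mllt3, Procr, Fgd5, Ly6a and Slamf1, together with Vwf, Selp and Clu, which mark stem cells biased towards platelets. They were taken as a fixed list of symbols and matched through GENCODE vM21 to the Ensembl identifiers of a count table of 45706 genes. All 10 were found, and all 10 were among the 18983 genes with enough counts to be tested. The libraries were made from poly(A) RNA of lineage-negative bone marrow, which is femoral marrow from which cells bearing mature blood markers were removed on a magnetic column, so that stem and progenitor cells are enriched but not pure.

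The marrow came from secondary recipients in a serial transplantation of LSK cells (lineage-negative, Sca-1 and c-Kit positive). Donors were C57BL/6 J mice of 8 to 12 weeks that carried CD45.2. Their LSK cells were placed in lethally irradiated CD45.1 recipients and passed on after 6 weeks, and the second recipients were killed at 16 weeks, or earlier if they fell ill. The 4 donor genotypes were WT (3 libraries), Puma-/- (4 libraries), G3 mTerc-/-Puma+/+ (4 libraries) and G3 mTerc-/-Puma-/- (4 libraries). Puma, whose gene symbol is Bbc3, is a BH3-only protein that triggers apoptosis downstream of p53, and mTerc is the RNA template of telomerase. G3 means the third generation bred without telomerase. Both deletions are germline, so they were present in every donor cell, whereas the irradiated host and any surviving CD45.1 cells were of the recipient's genotype. The labels do not tie libraries to separate donors, so p-values measure the spread between these libraries.

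Long-term stem cells sit at the top of the blood hierarchy and are held there by a small set of transcription regulators, while surface proteins such as EPCR, Sca-1 and CD150 are used to sort them. Some stem cells favour the megakaryocyte lineage, and these carry von Willebrand factor and other platelet transcripts that mature megakaryocytes also make in abundance. Endothelial cells make von Willebrand factor and P-selectin as well.

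Total counts were 102790519 to 158367059 per library, and levels are given as CPM (counts scaled to a common library total after TMM scaling, which adjusts for differences in library composition). Terc had 4 to 17 counts in each library with telomerase and 0 or 1 in each library labelled mTerc-/-. Bbc3 stood at 5.04 to 6.83 CPM in Puma-/- libraries and 9.71 to 23.5 CPM in WT. In the set labelled G3 mTerc-/-Puma-/- it stood at 13.5 to 17.1 CPM, within the range of WT, which goes against their label. For that reason the labels, and not a verified genotype, are used for this group. Replicate 2 of that group stood apart, with Flt3 at 3.46 CPM where the other 14 libraries had 57.2 to 187 CPM and Dntt at 0.33 CPM against 10.9 to 148. Replicate 2 was left out of the fits below unless stated, because the study's heatmaps do not draw it. Its values are given beside the others. Xist, made from the inactive X chromosome, was at 466 to 868 CPM in all 4 Puma-/- libraries. The Y-linked Ddx3y was at 2 to 5 counts in those libraries and at 458 or more counts in every library of the other groups. By CPM, Ddx3y was at 21.3 to 43.1 in WT and 42.8 to 48.2 in G3 mTerc-/-Puma+/+. In the set labelled G3 mTerc-/-Puma-/- it was at 2.88 and 4.26 CPM in replicates 1 and 4, but 39.0 and 46.0 in replicates 2 and 3. Xist also varied within the groups other than Puma-/-, at 1.73 to 418 CPM in WT and 0.177 to 88.9 in G3 mTerc-/-Puma+/+. In the set labelled G3 mTerc-/-Puma-/- it ranged from 0.388 to 662 CPM, with 662 and 445 in replicates 1 and 4. In Puma-/- against WT and in G3 mTerc-/-Puma+/+ against Puma-/-, the Y-linked difference and the genotype cannot be told apart. Against the set labelled G3 mTerc-/-Puma-/-, that difference was present for every library but smaller for replicates 1 and 4. Its part in that comparison was not tested.

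Vwf was the one gene of the 10 that passed the adjusted threshold, and it did so in both comparisons of a G3 mTerc-/- group with Puma-/-. The genes Hlf, Mecom, Procr, Fgd5, Slamf1 and Clu had their highest group mean in Puma-/- among the 14 libraries but missed that threshold in every comparison. With replicate 2 included, the highest mean of Clu was in the set labelled G3 mTerc-/-Puma-/- instead. Ly6a had its lowest mean in G3 mTerc-/-Puma+/+, and Mllt3 and Selp had no comparison with an unadjusted p under 0.05.

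**Figure D1:**
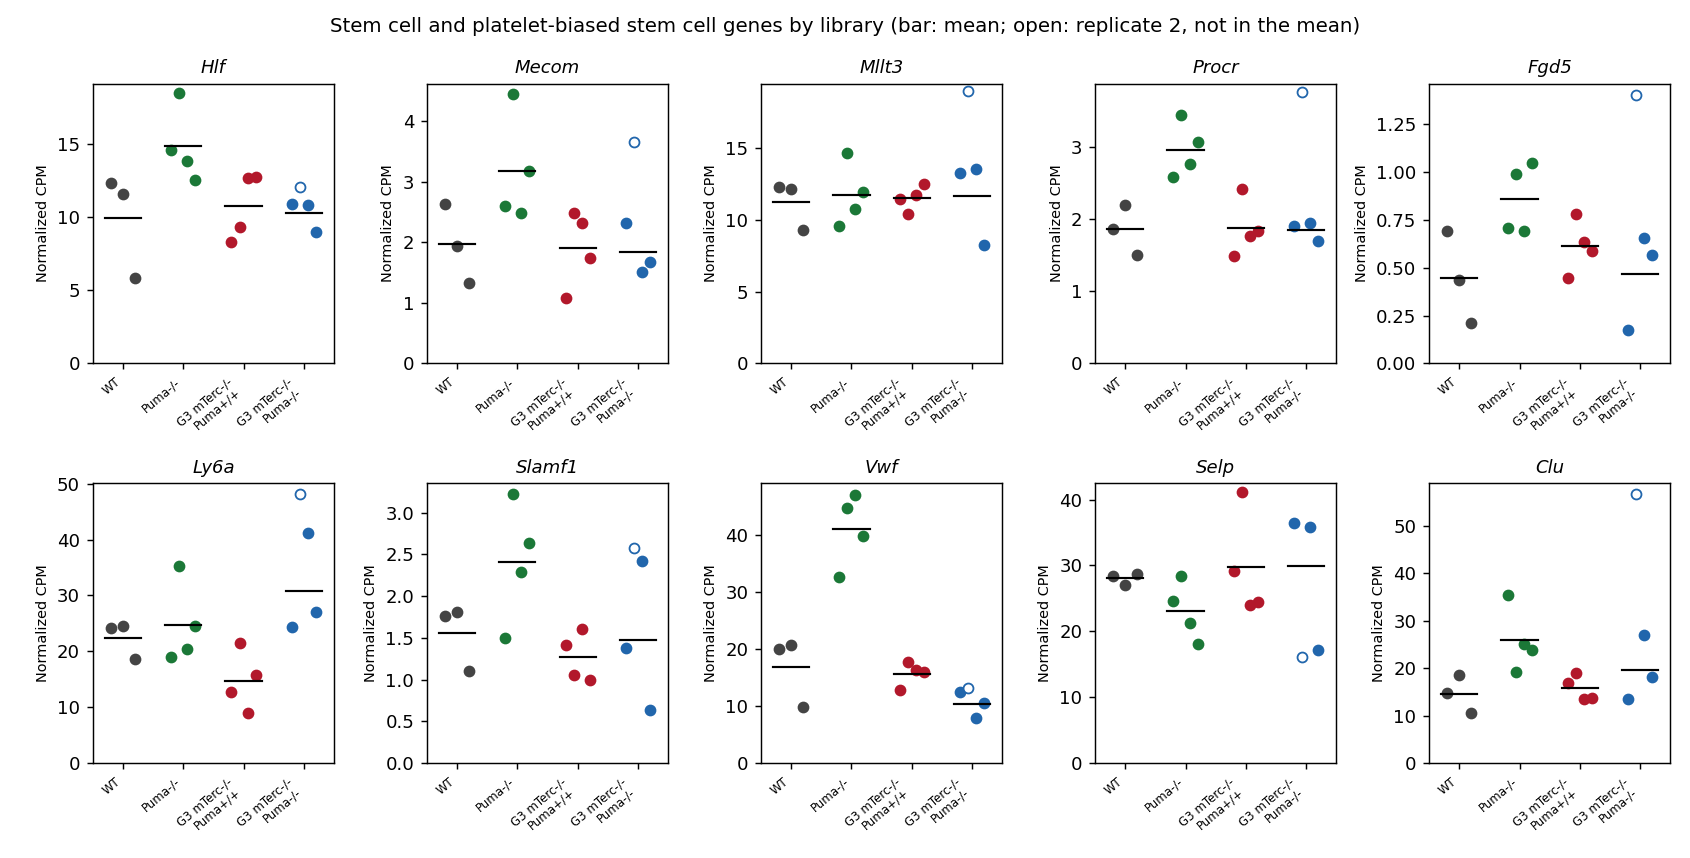
Normalized CPM (vertical axis, from 0) of each of the 10 genes in the 15 libraries, grouped by genotype, with a bar at the mean and an open symbol for replicate 2 of the G3 mTerc-/-Puma-/- group, which is not in the mean. The 4 Puma-/- libraries lie at 32.5 to 47.1 CPM for Vwf, above the other 11 libraries, whose highest value is 20.7 CPM.

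The calls were made with edgeR's quasi-likelihood test, Benjamini-Hochberg adjustment over all 18983 genes and a threshold of 0.05. Against WT, 0 of the 10 genes passed in Puma-/-, where 0.079% of all genes did. At an unadjusted p under 0.05, 6 of the 10 passed there, beside 10.1% of all genes, and each of the 6 had the higher level in Puma-/-. DESeq2 called 2 of the 10 in this comparison, Procr and Vwf, and limma-voom called 0. In G3 mTerc-/-Puma+/+ against WT, 0 of the 10 passed (0.0369% of all genes) and 1 did unadjusted (3.86%). In the set labelled G3 mTerc-/-Puma-/- against WT, 0 passed (0.0632% of all genes) and 1 did unadjusted (5.45%). DESeq2 and limma-voom also called 0 in both of these comparisons.

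Against Puma-/-, the group labelled G3 mTerc-/-Puma-/- had 1 of the 10 genes past the adjusted threshold, where 0.306% of all genes passed, and 4 at an unadjusted p under 0.05, beside 8.42%. G3 mTerc-/-Puma+/+ against Puma-/- likewise had 1 of 10 (0.801% of all genes) and 6 unadjusted (17.1%). Between both G3 mTerc-/- groups, 0 passed (0.0738% of all genes) and 2 did unadjusted (6.22%). DESeq2 called 1 of the 10 in that last comparison, Ly6a, and limma-voom 0. These pairs of comparisons share the Puma-/- libraries, so they are not independent of each other.

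For the interaction of mTerc and Puma, which asks whether the effect of telomerase loss differed with Puma, 0 of the 10 genes passed (0.0527% of all genes) and 4 did unadjusted (4.93%). DESeq2 called 1, Vwf, and limma-voom 0. For any difference among the 4 genotypes, 1 of the 10 passed (0.448% of all genes) and 4 did unadjusted (11.4%). Over the 10 genes the adjusted p ranged from 0.104 to 0.999 for the interaction and from 0.004 to 0.998 for any difference.

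Over the 10 genes the middle log2 fold change was 0.65 in Puma-/- against WT, beside 0.00 over all genes tested. It was -0.69 in G3 mTerc-/-Puma+/+ against Puma-/- (all genes: 0.00) and -0.61 in the set labelled G3 mTerc-/-Puma-/- against Puma-/- (all genes: 0.01). In both G3 mTerc-/- groups against WT the median was within 0.05 of 0.

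**Figure D2:**
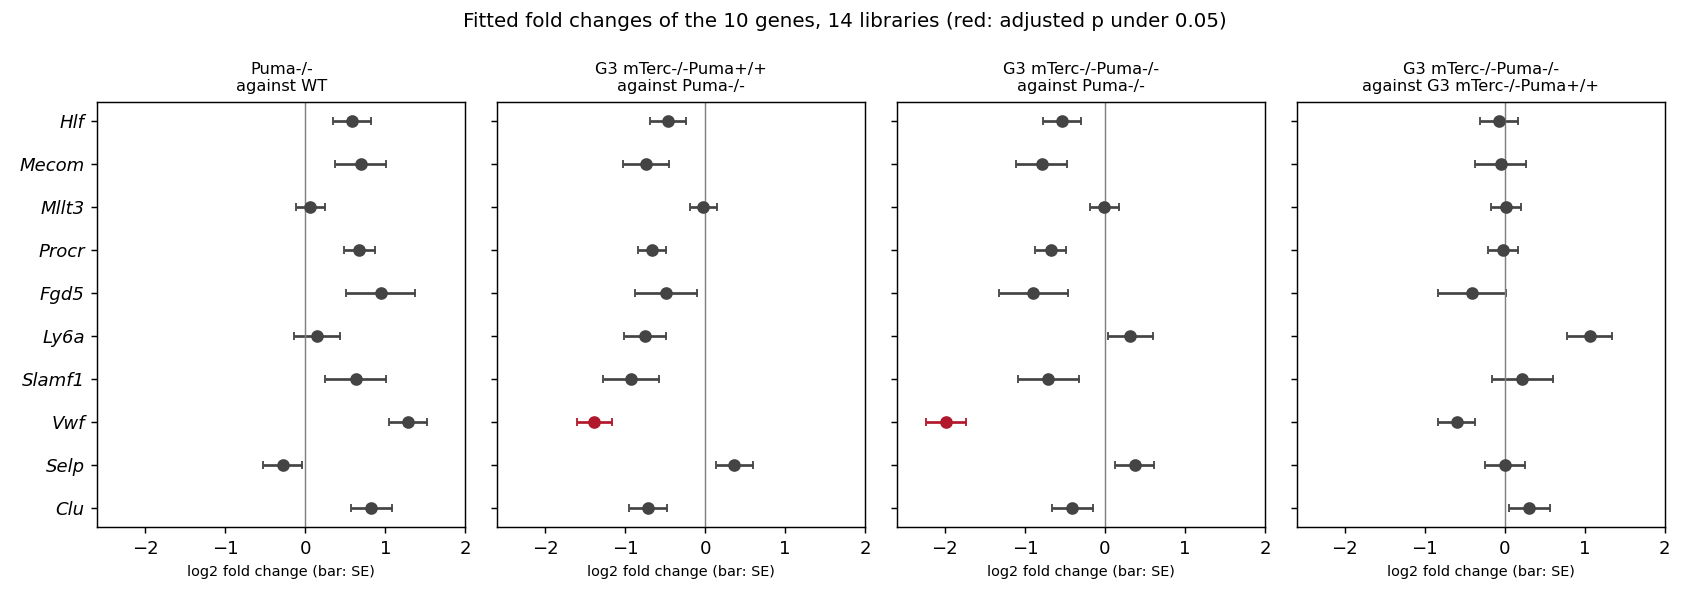
Log2 fold change (horizontal axis) of the 10 genes in 4 comparisons of the 14-library edgeR fit, with bars for the standard error and red for an adjusted p under 0.05. Vwf is red in both comparisons with Puma-/-, at -1.39 and -1.98, and Mllt3 lies near 0 in all 4 panels.

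Hlf (chr11:90336536-90390895, minus strand, GRCm38) encodes a PAR bZIP transcription factor that keeps stem cells quiescent. Its 300 bases around the start, chr11:90390868-90391167 on the minus strand, are shown with those of Procr and Selp because Hlf and Procr were apart between Puma-/- and WT libraries while Selp overlapped. Capitals mark GGAAG, 1 form of the site of ETS factors, or GATAA, 1 form of the site of GATA factors, on either strand. Other forms of these sites are not marked. The sequences are RefSeq's for GRCm38.p6, 250 bases before to 50 after the start.
Hlf: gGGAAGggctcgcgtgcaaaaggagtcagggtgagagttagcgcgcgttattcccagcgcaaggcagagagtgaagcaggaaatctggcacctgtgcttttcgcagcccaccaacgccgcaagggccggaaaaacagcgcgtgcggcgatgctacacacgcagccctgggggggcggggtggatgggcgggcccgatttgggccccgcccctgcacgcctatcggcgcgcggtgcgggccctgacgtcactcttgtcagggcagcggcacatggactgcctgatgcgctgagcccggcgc
Procr: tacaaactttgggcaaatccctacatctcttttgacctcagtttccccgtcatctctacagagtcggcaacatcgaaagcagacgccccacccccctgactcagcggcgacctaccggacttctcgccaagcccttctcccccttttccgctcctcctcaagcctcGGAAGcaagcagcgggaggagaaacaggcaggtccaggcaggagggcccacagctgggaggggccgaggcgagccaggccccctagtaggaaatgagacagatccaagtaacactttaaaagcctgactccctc
Selp: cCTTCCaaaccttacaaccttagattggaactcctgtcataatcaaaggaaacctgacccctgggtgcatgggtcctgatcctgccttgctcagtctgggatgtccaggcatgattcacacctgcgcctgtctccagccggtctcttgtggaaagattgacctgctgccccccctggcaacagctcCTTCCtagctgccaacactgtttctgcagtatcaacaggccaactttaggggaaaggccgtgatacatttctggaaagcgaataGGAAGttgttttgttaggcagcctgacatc
Hlf and Procr each held 1 GGAAG, Selp held 3, and none of these windows held GATAA. Of 32851 promoters of the same length, 71.4% held GGAAG and 25.4% held GATAA, so the matches are common ones. RefSeq promoters were found for 7 of the 10 genes, and none was used for Vwf, Ly6a and Clu.

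Hlf was at 12.3, 11.6 and 5.81 CPM in WT replicates 1 to 3 and at 14.6, 18.5, 13.8 and 12.5 CPM in Puma-/-. It was at 8.30, 9.29, 12.7 and 12.8 CPM in G3 mTerc-/-Puma+/+, and at 10.9, 12.1, 10.8 and 9.01 CPM in the 4 libraries with the label G3 mTerc-/-Puma-/-. Every Puma-/- library was above every WT library, and WT replicate 3 was the lowest of all 15. The log2 fold change in Puma-/- against WT was 0.58 (SE 0.24, adjusted p = 0.455), and 0.31 to 0.76 with 1 library left out. That of the set labelled G3 mTerc-/-Puma-/- against Puma-/- was -0.54 (SE 0.24, adjusted p = 0.579), and these groups did not overlap with replicate 2 included.

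Mecom (chr3:29951296-30548008) encodes EVI1, a zinc finger regulator needed for stem cell self-renewal. It was at 2.64, 1.94 and 1.34 CPM in WT and at 2.60, 4.46, 2.48 and 3.19 CPM in Puma-/-, with overlap between them. It was at 1.08, 2.49, 2.33 and 1.74 CPM in G3 mTerc-/-Puma+/+ and at 2.33, 3.67, 1.52 and 1.67 CPM in the set labelled G3 mTerc-/-Puma-/-. Puma-/- had the highest mean, and replicate 2 of the last group lay inside the Puma-/- range while the other 3 lay below it. Puma-/- against WT gave 0.69 on the log2 scale (SE 0.32, adjusted p = 0.488). It was -0.74 (SE 0.29, adjusted p = 0.219) in G3 mTerc-/-Puma+/+ against Puma-/-, and -0.79 (SE 0.32, adjusted p = 0.519) in the set labelled G3 mTerc-/-Puma-/- against Puma-/-. With all 15 libraries the latter was -0.47 (adjusted p = 0.813). Mecom shares 81 exonic bases with the opposite-strand gene Mecomos, which had at most 5 counts in any library.

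Mllt3 (chr4:87769925-88033364) encodes AF9, a chromatin reader of the super elongation complex that sustains stem cell expression programmes. It was at 12.3, 12.2 and 9.27 CPM in WT and at 9.59, 14.7, 10.8 and 11.9 CPM in Puma-/-. It was at 11.5, 10.4, 11.8 and 12.5 CPM in G3 mTerc-/-Puma+/+ and at 13.3, 19.0, 13.6 and 8.29 CPM in the set labelled G3 mTerc-/-Puma-/-. All 4 groups overlapped, and the means of the 14 libraries were 11.3 to 11.7 CPM. An approximate 95% interval of the log2 fold change in Puma-/- against WT was -0.30 to 0.42, so a change within those bounds would not have been resolved. It was taken from the SE by the normal rule, which is somewhat narrow for so few libraries.

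Procr (chr2:155751117-155755471) encodes EPCR, the endothelial protein C receptor, whose surface level marks cells with long-term repopulating activity. It was at 1.87, 2.20 and 1.51 CPM in WT and at 2.58, 3.44, 2.76 and 3.07 CPM in Puma-/-. It was at 1.49, 2.41, 1.76 and 1.83 CPM in G3 mTerc-/-Puma+/+ and at 1.91, 3.76, 1.95 and 1.70 CPM in the set labelled G3 mTerc-/-Puma-/-. Every Puma-/- library was above every WT and G3 mTerc-/-Puma+/+ library, and among the last group replicate 2 alone was above the Puma-/- range. Puma-/- against WT gave 0.67 on the log2 scale (SE 0.19, adjusted p = 0.352). It was -0.66 (SE 0.17, adjusted p = 0.0847) in G3 mTerc-/-Puma+/+ against Puma-/- and -0.68 (SE 0.19, adjusted p = 0.227) in the set labelled G3 mTerc-/-Puma-/- against Puma-/-. With all 15 libraries this last value was -0.35 (adjusted p = 0.813). Both the interaction (log2 fold change -0.69, SE 0.27, unadjusted p = 0.0227, adjusted p = 0.915) and the test of any difference (unadjusted p = 0.00342, adjusted p = 0.161) missed the adjusted threshold. The interaction was -0.36 with all 15 libraries.

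Fgd5 (chr6:91978878-92076004) encodes a guanine nucleotide exchange factor for CDC42, and reporter mice for it mark stem cells. It was the least abundant of the 10, with 24 to 162 counts a library. It was at 0.69, 0.44 and 0.21 CPM in WT and at 0.71, 0.99, 0.69 and 1.05 CPM in Puma-/-. It was at 0.45, 0.78, 0.64 and 0.59 CPM in G3 mTerc-/-Puma+/+ and at 0.18, 1.40, 0.65 and 0.56 CPM in the set labelled G3 mTerc-/-Puma-/-. The highest and the lowest of all 15 libraries thus both carried the last label, and WT and Puma-/- touched, WT replicate 1 lying just inside the Puma-/- range. Puma-/- against WT gave 0.94 on the log2 scale (SE 0.43, adjusted p = 0.488) and -0.89 (SE 0.43, adjusted p = 0.61) in the set labelled G3 mTerc-/-Puma-/- against Puma-/-. The latter was -0.30 with all 15 libraries. The interaction was -1.35 (SE 0.61, unadjusted p = 0.0448, adjusted p = 0.989), and -0.76 with all 15 libraries.

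Slamf1 (chr1:171767127-171801184) encodes CD150, the SLAM receptor by which long-term stem cells are sorted. It was at 1.77, 1.82 and 1.10 CPM in WT and at 1.504, 3.22, 2.29 and 2.63 CPM in Puma-/-. It was at 1.42, 1.05, 1.61 and 0.99 CPM in G3 mTerc-/-Puma+/+ and at 1.38, 2.57, 2.42 and 0.63 CPM in the set labelled G3 mTerc-/-Puma-/-. Puma-/- replicate 1 lay within the G3 mTerc-/-Puma+/+ range and the other 3 lay above it. The log2 fold change between these groups was -0.93 (SE 0.35, adjusted p = 0.206).

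Ly6a (chr15:74994877-74998031) encodes Sca-1, a GPI-anchored protein used in the LSK gate that is also made by lymphoid and other cells, and it had the highest level per length of the 10. It was at 24.2, 24.5 and 18.6 CPM in WT and at 19.1, 35.2, 20.4 and 24.5 CPM in Puma-/-. It was at 12.7, 21.5, 8.89 and 15.8 CPM in G3 mTerc-/-Puma+/+ and at 24.3, 48.1, 41.1 and 27.1 CPM in the set labelled G3 mTerc-/-Puma-/-. All 4 libraries labelled G3 mTerc-/-Puma-/- were above all 4 G3 mTerc-/-Puma+/+ libraries. The log2 fold change between them was 1.07 (SE 0.28, adjusted p = 0.273) in 14 libraries and 1.25 (adjusted p = 0.191) in 15. An exact two-sided permutation test of mean log2 CPM gave an unadjusted p = 0.0286 with all 4 against 4, the smallest that design allows. Libraries that do not overlap always give that value, so it adds nothing to the separation.

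In G3 mTerc-/-Puma+/+, Ly6a was -0.61 on the log2 scale against WT (SE 0.28, adjusted p = 0.998) and -0.75 against Puma-/- (SE 0.26, adjusted p = 0.176), with overlap both times. The interaction was 0.92 (SE 0.40, unadjusted p = 0.0367, adjusted p = 0.977), and any difference had an unadjusted p of 0.0147 (adjusted p = 0.284). The 8 B lineage genes moved with Ly6a in G3 mTerc-/-Puma+/+. Their summed level was 67.2 to 73.8 CPM in WT, 77.1 to 88.8 in Puma-/-, 42.0 to 56.2 in G3 mTerc-/-Puma+/+ and 69.7 to 123 in the 4 libraries with the label G3 mTerc-/-Puma-/-. The B cell receptor component Cd79a was the gene most like Ly6a over the 15 libraries (Pearson r = 0.91, a description). Replicate 2 of the set labelled G3 mTerc-/-Puma-/- had the highest Ly6a of all 15 libraries and, at 69.7 CPM, the lowest B lineage sum of its label. Other lists shared part of this pattern. Between both G3 mTerc-/- groups, 9 of 9 macrophage, 11 of 12 endothelial and 11 of 12 multipotent and lymphoid progenitor genes were also higher with the Puma-/- label. Their median log2 fold changes were 0.83, 0.45 and 0.29, beside 1.57 for the B lineage genes. In G3 mTerc-/-Puma+/+ against WT their medians were -0.09, 0.04 and -0.09, beside -0.95. The part of B lineage or other cells in the Ly6a levels was not tested.

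**Figure D3:**
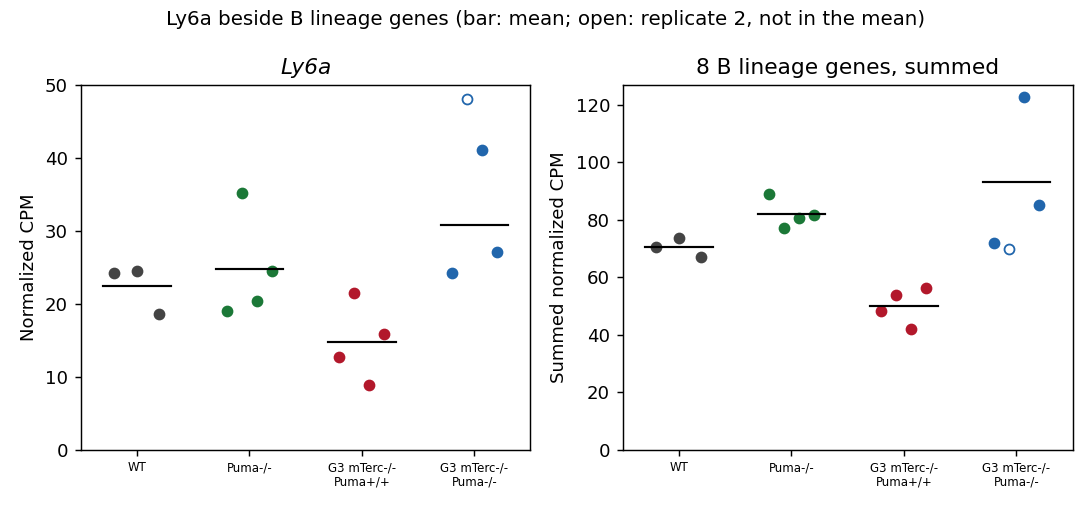
Normalized CPM of Ly6a (left) and of 8 B lineage genes summed (right), both axes from 0, in the 15 libraries by genotype, with a bar at the mean and an open symbol for replicate 2, which is not in the mean. Both are lowest in G3 mTerc-/-Puma+/+, where Ly6a spans 8.89 to 21.5 CPM and the B lineage sum 42.0 to 56.2 CPM.

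Vwf (chr6:125546774-125686679) encodes von Willebrand factor, the platelet adhesion protein stored by megakaryocytes and endothelium, and its reporter marks platelet-biased stem cells. It was at 20.1, 20.7 and 9.89 CPM in WT and at 32.5, 44.7, 47.1 and 39.8 CPM in Puma-/-. It was at 12.7, 17.7, 16.3 and 16.1 CPM in G3 mTerc-/-Puma+/+ and at 12.5, 13.1, 7.96 and 10.6 CPM in the set labelled G3 mTerc-/-Puma-/-. Every Puma-/- library was above each of the other 11, and WT replicate 3 lay with the lowest libraries.

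Vwf fell in the set labelled G3 mTerc-/-Puma-/- against Puma-/-, by 1.98 on the log2 scale (SE 0.25, adjusted p = 0.00329), from a mean of 41.0 ± 6.41 CPM (SD, n = 4) to 10.4 ± 2.29 (SD, n = 3). It also fell in G3 mTerc-/-Puma+/+ against Puma-/-, by 1.39 (SE 0.22, adjusted p = 0.0156), to 15.7 ± 2.11 CPM (SD, n = 4). The exact two-sided permutation p of the latter, unadjusted, was 0.0286, the smallest for 4 against 4, which libraries without overlap always give. That second call was lost with the log2 level of Xist as a covariate (log2 fold change -1.13, adjusted p = 0.143). It was also lost without Puma-/- replicate 2 (adjusted p = 0.0565), Puma-/- replicate 4 (0.0528) or G3 mTerc-/-Puma+/+ replicate 3 (0.0698).

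In Puma-/- against WT, where the mean was 16.9 ± 6.06 CPM (SD, n = 3), the log2 fold change of Vwf was 1.28, a ratio of 2.43 (SE 0.24, unadjusted p = 0.000113, adjusted p = 0.107). DESeq2 gave an adjusted p of 4.65e-05 for it. With 1 library left out the log2 fold change was 1.01 to 1.45, and over all alternatives the adjusted p reached 0.346. Against WT, the set labelled G3 mTerc-/-Puma-/- was at -0.70 (SE 0.25, adjusted p = 0.698), with overlap, and against G3 mTerc-/-Puma+/+ at -0.60 (SE 0.23, adjusted p = 0.665), where replicate 2 overlapped and the other 3 did not. The interaction was -1.88 (SE 0.33, unadjusted p = 7.13e-05, adjusted p = 0.104), and any difference among the genotypes passed (adjusted p = 0.004).

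The 18 megakaryocyte and platelet genes, which do not include Vwf, had the same order of groups. Their summed level was 311 to 537 CPM in WT, 633 to 948 in Puma-/-, 298 to 457 in G3 mTerc-/-Puma+/+ and 290 to 368 in the 4 libraries with the label G3 mTerc-/-Puma-/-. In the set labelled G3 mTerc-/-Puma-/- against Puma-/-, 10 of the 18 fell and 0 rose, beside 0.306% of all genes called, and the median over the list was -1.65 on the log2 scale. In G3 mTerc-/-Puma+/+ against Puma-/-, 8 fell and 0 rose, beside 0.801% of all genes called, with a median of -1.30. All 18 were lower at an unadjusted p under 0.05 in both comparisons, beside 8.42% and 17.1% of all genes at that p in either direction. In Puma-/- against WT 0 of the 18 passed by edgeR (DESeq2 called 7 and limma-voom 0) and 15 were higher at an unadjusted p under 0.05 (10.1% of all genes in either direction), with a median of 1.02.

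Within that list, Gp1ba, a subunit of the von Willebrand factor receptor, fell by 1.68 (SE 0.23, adjusted p = 0.00594) in the set labelled G3 mTerc-/-Puma-/- against Puma-/-. Pf4, a platelet granule chemokine, fell by 2.22 (SE 0.31, adjusted p = 0.00594) there, and Gp9, another receptor subunit, by 1.62 (SE 0.25, adjusted p = 0.0143). Vwf amounted to 4.96 to 5.84% of the list's summed level in Puma-/- libraries and 3.18 to 3.93% in WT, which did not overlap. It amounted to 3.42 to 5.97% in G3 mTerc-/-Puma+/+, overlapping Puma-/- through replicate 2, and to 2.57 to 4.52% in the 4 libraries with the label G3 mTerc-/-Puma-/-. Abundant genes weigh most in that sum, and Itga2b alone had a mean of 146 CPM in WT and 247 CPM in Puma-/-. In bulk RNA, fewer cells of a type and less RNA per cell cannot be told apart, and the part of megakaryocytes in the Vwf levels was not tested.

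**Figure D4:**
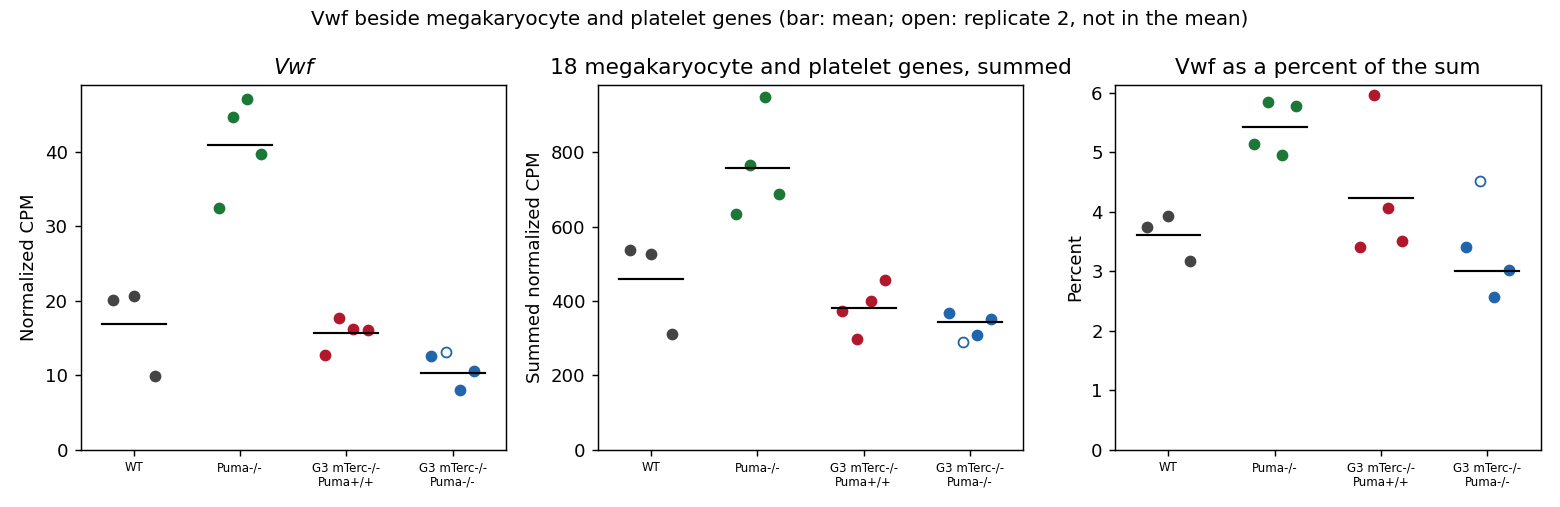
Normalized CPM of Vwf (left), summed CPM of 18 megakaryocyte and platelet genes (middle) and Vwf as a percent of that sum (right), all axes from 0, by genotype, with a bar at the mean and an open symbol for replicate 2, which is not in the mean. Puma-/- libraries are above all others in the left and middle panels, while on the right 1 G3 mTerc-/-Puma+/+ library, at 5.97%, lies above them.

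For the 12 endothelial genes the summed level was 162 to 168 CPM in WT, 177 to 225 in Puma-/-, 135 to 183 in G3 mTerc-/-Puma+/+ and 158.3 to 208 in the 4 libraries with the label G3 mTerc-/-Puma-/-. All 12 had a fitted level above WT in Puma-/- (median log2 fold change 0.56) and 0 of 12 were above Puma-/- in G3 mTerc-/-Puma+/+ (median -0.64). At an unadjusted p under 0.05 there were 1 and 2 of the 12, beside 10.1% and 17.1% of all genes in either direction, so near those shares. In the set labelled G3 mTerc-/-Puma-/- against Puma-/- 6 of the 12 were above 0 and the median was -0.03. Cdh5, the adhesion protein that defines endothelium, was at 5.94 to 7.33 CPM in those last 4 libraries and at 2.61 to 5.16 CPM in Puma-/-. By edgeR 0 of the 12 passed the adjusted threshold in any comparison, 1 had an unadjusted p under 0.05 for any difference (11.4% of all genes), and there DESeq2 called 1 and limma-voom 0. Their part in the Vwf levels was not tested.

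Selp (chr1:164115264-164150026) encodes P-selectin, the adhesion receptor that platelets and endothelium store in granules. It was at 28.4, 27.1 and 28.8 CPM in WT and at 24.6, 28.5, 21.3 and 18.04 CPM in Puma-/-. It was at 29.2, 41.2, 24.1 and 24.5 CPM in G3 mTerc-/-Puma+/+ and at 36.5, 16.1, 35.8 and 17.2 CPM in the set labelled G3 mTerc-/-Puma-/-. All groups overlapped, and in the last label 2 libraries were near the top and 2 near the bottom of all 15. Unlike the other 9 genes, Selp had a fitted level below WT in Puma-/-. The approximate 95% interval of that log2 fold change, by the same normal rule, was -0.76 to 0.20. Selp shares 624 exonic bases with Gm16548 and Gm16587 on the opposite strand, which had 18 to 104 counts a library, whereas Selp had 1865 to 5804. The strand setting of the counting is not given in the sources used here.

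Clu (chr14:65968483-65981547) encodes clusterin, a secreted chaperone also made by megakaryocytes and stromal cells. It was at 14.8, 18.5 and 10.6 CPM in WT and at 35.5, 19.2, 25.1 and 23.9 CPM in Puma-/-. It was at 16.9, 19.0, 13.5 and 13.7 CPM in G3 mTerc-/-Puma+/+ and at 13.6, 56.6, 26.9 and 18.1 CPM in the set labelled G3 mTerc-/-Puma-/-. Puma-/- libraries were above all WT and G3 mTerc-/-Puma+/+ libraries by a narrow gap, 19.2 against 19.0 CPM at the closest, and the highest value of all was replicate 2 of the last label. The mean of that label was 19.5 CPM without replicate 2 and 28.8 CPM with it, beside 25.9 CPM in Puma-/-. Puma-/- against WT gave 0.82 on the log2 scale (SE 0.26, adjusted p = 0.379) and -0.72 (SE 0.24, adjusted p = 0.15) in G3 mTerc-/-Puma+/+ against Puma-/-. Any difference had an unadjusted p of 0.0188 (adjusted p = 0.308).

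Marrow stromal genes varied widely within groups. The 10 of them summed to 430 to 1388 CPM in WT, 434 to 1031 in Puma-/-, 409 to 2831 in G3 mTerc-/-Puma+/+ and 493 to 2305 in the 4 libraries labelled G3 mTerc-/-Puma-/-, where the top value was replicate 2. The library with the highest stromal sum, G3 mTerc-/-Puma+/+ replicate 1, had Clu at 16.9 CPM, and the library with the next highest sum, replicate 2 of the set labelled G3 mTerc-/-Puma-/-, had the highest Clu, at 56.6 CPM. By edgeR 0 of the 10 stromal genes passed in any comparison, 4 had an unadjusted p under 0.05 for any difference (11.4% of all genes), and there DESeq2 called 1 and limma-voom 0. Their part in the Clu levels was not tested.

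Levels per length put the genes in another order than CPM. Per kilobase of exon, the median over 15 libraries was 20.1 CPM for Ly6a, 6.14 for Selp, 5.39 for Clu, 1.81 for Hlf, 1.01 for Vwf, 0.995 for Mllt3 and 0.96 for Procr. It was 0.261 for Slamf1, 0.187 for Mecom and 0.104 for Fgd5. The ratio of the highest to the lowest library was 7.93 for Fgd5 and 5.91 for Vwf, and 2.29 for Mllt3, the steadiest of the 10.

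Among 28 other stem cell genes, all 28 had a fitted level above WT in Puma-/-, 14 of them at an unadjusted p under 0.05 (10.1% of all genes in either direction) and 0 past the adjusted threshold by edgeR (DESeq2 called 3 and limma-voom 0). Their median log2 fold change there was 0.62, beside 0.65 for the 10 genes. In G3 mTerc-/-Puma+/+ against Puma-/-, Pdzk1ip1, a membrane-associated adaptor, fell by 1.23 (SE 0.24, adjusted p = 0.0429). The cation channel Trpc6 fell by 2.22 (SE 0.36, adjusted p = 0.0162) in the set labelled G3 mTerc-/-Puma-/- against Puma-/-. The median of the 28 was -0.69 and -0.60 in these comparisons.

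Of the 8 B lineage genes, Blnk, an adaptor of B cell receptor signalling, rose in the set labelled G3 mTerc-/-Puma-/- against G3 mTerc-/-Puma+/+ (log2 fold change 1.79, SE 0.23, adjusted p = 0.0128). Blnk and Ms4a1, which encodes CD20, fell in G3 mTerc-/-Puma+/+ against Puma-/-, by 1.10 (SE 0.22, adjusted p = 0.0431) and by 2.61 (SE 0.27, adjusted p = 0.000444). The 12 multipotent and lymphoid progenitor genes (lowest p: Dntt, Ccr9), 8 T and NK cell genes (Cd4, Lck, Cd3d), 10 late neutrophil genes (Ngp, Camp, Ltf), 9 macrophage genes (Adgre1, Axl, Vcam1) and 10 erythroid genes (Hbb-bt, Hba-a1, Alas2) had 0 past the adjusted threshold in any comparison by edgeR. For any difference, these lists had 3, 1, 4, 1 and 3 genes at an unadjusted p under 0.05 in that order (11.4% of all genes), and DESeq2 called 2, 1, 0, 0 and 0 of them and limma-voom 0. The endothelial genes with the lowest p for any difference were Cdh5, Cldn5 and Egfl7, and the stromal ones Pdgfrb, Lepr and Lum. Erythroid genes summed to 199 to 387 CPM in the 14 libraries and to 1506 in replicate 2.

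By likeness of pattern over the 15 libraries, a description in which the points share genotype and replicate 2, the genes closest to Vwf were Timp3 (Pearson r = 0.98) and Gm10419 (0.97). Those closest to Clu were Col16a1 and Mme (both 0.95), and the one closest to Procr was Il20ra (0.93). Prkg1 (0.93) and Plxna3 (0.90) were closest to Mecom, Socs5 and Cep126 (both 0.89) to Hlf, and Gm42732 (0.90) and Mtmr7 (0.87) to Mllt3. Gm15674 (0.85) and Fndc8 (0.84) were closest to Fgd5, Ica1l (0.90) and Vsig2 (0.86) to Slamf1, and Sfmbt2 (0.88) and Gm12960 (0.82) to Selp. Ly6a was followed, after Cd79a, by Sdc1 (0.90).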

How the data were processed

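RNA of lineage-negative marrow was sequenced from stranded poly(A) libraries by the authors, who deposited raw counts per gene. Per the submitters' processing notes, reads were trimmed with Trimmomatic 0.38 and counted with STAR 2.5.2b on mm10. The annotation release and strand setting are not given in the sources used here. Symbols came from GENCODE vM21, and 563 identifiers without one held 0.0643% of counts.

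The fits were run in edgeR 4.0.16 under R 4.3.3 (TMM, filterByExpr, quasi-likelihood test, 1 fit of 14 libraries, common biological coefficient of variation 0.251). Log2 CPM used a prior count of 2. Single genes were also compared by exact two-sided permutation of mean log2 CPM, whose smallest p is 0.0571 for 3 against 4, 0.0286 for 4 against 4 and 0.1 for 3 against 3. Replicate 2 of the G3 mTerc-/-Puma-/- group was left out because the study's heatmaps do not draw it. Alternatives were all 15 libraries, library size alone, no count filter, DESeq2 1.42.0, limma-voom (limma 3.58.1), a replicate block, the compared groups alone, an Xist covariate and leaving out each library. Fits were tested on simulated data.

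The 10 genes, the marker lists and the rule for printing values were chosen with earlier results of these data known. Fold changes are printed where the unadjusted p was under 0.05 or the libraries of both genotypes did not overlap. Likeness names the 2 genes with the highest Pearson r, and each list names the 3 genes with the lowest p for any difference. Some genes that these rules name are not reported here.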

Additional observations from a re-analysis of the deposited data

Results flagged for a closer look

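Procr in replicate 2 of the G3 mTerc-/-Puma-/- group, at 3.76 CPM, lay far from the other 3 libraries of that label, which had 1.70 to 1.95 CPM, by Dixon's criterion. It was the 1 such library among 30 groups of 4 examined over the 10 genes, and chance gives about 1 in 20 groups.

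For Vwf, the difference between the Puma labels pointed in opposite directions with and without telomerase. Every Puma-/- library was above every WT library, whereas the 3 libraries labelled G3 mTerc-/-Puma-/- in the fit were below every G3 mTerc-/-Puma+/+ library. The interaction was -1.88 on the log2 scale and missed the adjusted threshold by edgeR (adjusted p = 0.104), and replicate 2 overlapped the G3 mTerc-/-Puma+/+ range. Bbc3 in the group labelled G3 mTerc-/-Puma-/- was within the WT range, so the direction rests on the label. Ddx3y was almost absent in Puma-/- libraries, at 0.0178 to 0.0448 CPM. It was low, at 2.88 and 4.26 CPM, in replicates 1 and 4 of the group labelled G3 mTerc-/-Puma-/-. In Puma-/- against WT, Puma loss and the Y-linked difference cannot be told apart.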

How the results depend on the processing

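Over 25 fold changes, recomputed 546 times over 21 or 22 alternatives each, none changed direction and 533 stayed on the same side of the threshold. They had been picked for a low p or for libraries without overlap in these same data, which favours a stable direction. Only Vwf, in both comparisons with Puma-/-, had passed, so for the rest the same side means not passing again. The Vwf call in G3 mTerc-/-Puma+/+ against Puma-/- was lost under 4 of 22 alternatives. The count of genes passing among the 10 moved with DESeq2, to 2 in Puma-/- against WT, 2 in the group labelled G3 mTerc-/-Puma-/- against Puma-/-, 1 in that group against G3 mTerc-/-Puma+/+, 3 in G3 mTerc-/-Puma+/+ against Puma-/-, 1 for the interaction and 3 for any difference. With no count filter it moved to 1 in Puma-/- against WT and 1 for the interaction. With the Xist covariate it moved to 0 in G3 mTerc-/-Puma+/+ against Puma-/-, and leaving out 1 library gave 0 to 1 there. The cause was not tested.

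Vwf in the group labelled G3 mTerc-/-Puma-/- against Puma-/- passed under every alternative (log2 fold change -2.14 to -1.83, highest adjusted p 0.032). The numbers of all genes called moved by over 1.5 times: with DESeq2 from 15 to 137, 7 to 46, 12 to 89, 58 to 287, 14 to 172, 152 to 1004, 10 to 64 and 85 to 836, in the order of Puma-/- against WT, G3 mTerc-/-Puma+/+ against WT, the group labelled G3 mTerc-/-Puma-/- against WT, against Puma-/- and against G3 mTerc-/-Puma+/+, G3 mTerc-/-Puma+/+ against Puma-/-, interaction and any difference. With 15 libraries G3 mTerc-/-Puma+/+ against Puma-/- fell from 152 to 24, G3 mTerc-/-Puma+/+ against WT from 7 to 4, both G3 mTerc-/- groups from 14 to 6 and any difference from 85 to 48. With Xist the 152, 58 and 85 became 18, 33 and 36. Library size alone gave 8 and no filter 33 for the 14, no filter 149 for the 85, and limma-voom 5 for the 10. Fits of the compared groups alone gave 3 for the 7, 5 for the 12, 90 for the 58 and 2 for the 14. Leaving out 1 library gave 18 to 228 for the 152, 18 to 93 for the 58, 11 to 28 for the 15, 1 to 8 for the 7, 1 to 16 for the 12, 4 to 38 for the 14, 5 to 11 for the 10 and 34 to 115 for the 85.

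With the replicate number as a replicate block, no count among the 10 genes changed, while the 58, 152 and 85 became 21, 43 and 40. Same-numbered libraries did not deviate together (median correlation 0.0203 over 18 pairs), and 3 of 14 libraries matched their own number best, so the number was not taken to pair them. Fgd5, at 24 to 162 counts, is the gene whose precision depth limits most.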
